A study of Mus musculus with 24 samples.

Results

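The genes described here are the cyclins, kinases and inhibitors that act in the G1 phase of the cell cycle: the D cyclins *Ccnd1*, *Ccnd2* and *Ccnd3*, the E cyclins *Ccne1* and *Ccne2*, the kinases *Cdk4* and *Cdk6*, and the inhibitors *Cdkn1b*, *Cdkn2a* and *Cdkn2b*. They were chosen by symbol, and all 10 were found among the 25965 entries of the expression table. Their levels were followed by RNA-seq in male C57/Bl6 mouse embryonic stem cells (mESCs) that were expanded in 2i medium and then differentiated by weaning into DME HiHi medium. On day 2 of differentiation the cells received a short hairpin RNA (shRNA) against *Smarcc1*, a hairpin against *Smarca4*, or a nonsilencing hairpin (Nons). Puromycin selection began on day 3 in all groups, and cells were harvested for RNA on days 4, 5, 6 and 7. Each targeted gene had 2 hairpins with 1 library per hairpin and day, which gave 8 *Smarcc1* knockdown and 8 *Smarca4* knockdown libraries beside 4 Nons libraries of 1 culture series. Here a culture series means the libraries whose titles carry the same hairpin or Nons number. Whether the 4 days of a series came from 1 culture or from separate cultures is not stated. The 4 libraries of another Nons series were not analysed here, and how far Nons cultures vary was therefore not measured. One genotype label of the *Smarca4* libraries names Smarcc instead; the sample titles were followed.

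In G1, D cyclins bind and activate CDK4 and CDK6, which begin to phosphorylate the retinoblastoma protein; E cyclins then act with CDK2 to complete this step, E2F factors are released, and genes for DNA replication are transcribed. The INK4 proteins encoded by *Cdkn2a* and *Cdkn2b* bind CDK4 and CDK6, while p27, the product of *Cdkn1b*, binds cyclin and CDK complexes. Undifferentiated mESCs are known for a short G1 phase with high cyclin E activity and low levels of CDK inhibitors, and for a lengthening of G1 as they differentiate. Smarcc1 is a core subunit and Smarca4 a catalytic ATPase of the BAF complex, which moves nucleosomes.

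The hairpins define the groups, so their guide strands are shown as DNA, 5′ to 3′, with the seed (bases 2 to 8) in capitals.
Smarcc1.6: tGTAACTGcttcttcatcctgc
Smarcc1.7: tTGCTCATcttcttccttctga
Smarca4.4: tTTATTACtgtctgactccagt
Smarca4.6: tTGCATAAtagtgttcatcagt
Nons: cTTACTCTcgcccaagcgagag
Over 21 bases of each guide, the *Smarcc1* hairpins matched transcripts of *Smarcc1* alone and the *Smarca4* hairpins those of *Smarca4* alone in GENCODE M21, and the Nons guide matched none. None of the 10 G1 genes carried such a match. Matches to the 7-base seed are frequent: they occurred in 13.3% to 24.7% of the longest coding transcripts of 21877 genes, depending on the hairpin. The long *Cdk6* transcript held 1 seed match for Smarcc1.7, 1 for Smarca4.6 and 1 for Nons, and none for Smarcc1.6 or Smarca4.4. The *Cdkn1b* transcript held 2 for Nons and none for the other four hairpins. What these matches do to the levels was not tested.

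Total reads ranged from 6829596 (Smarca4.4 on day 5) to 27472885 (Nons on day 4), the next smallest library having 15717152. The lowest read counts of the G1 genes were in that shallow library, 27 for *Cdk6* and 28 for *Cdkn2b*. Elsewhere *Cdk6* had 75 to 615 reads and *Cdkn2b* 52 to 394. *Smarcc1* stood at 23.7% to 60.1% of same-day Nons in its 8 knockdown libraries, and *Smarca4* at 21.6% to 55.3% in its own 8. None of the 10 embryonic stem cell markers was without reads in any library. At these depths a few reads are enough for that, so the cell type rests on the labels. Levels are given as reads per 1000000 counted reads of the same library (rpm).

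The plot of levels by day gives each G1 gene in the 5 culture series. The direction between day 4 and day 7 was shared by all series for each gene, but the days between were not always: *Ccne2* was highest on day 5 in Smarcc1.6 and Smarca4.4 and on day 4 elsewhere, and *Cdkn2a* was highest on day 5 in Smarca4.6 and on day 7 elsewhere.

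**Figure D1:**
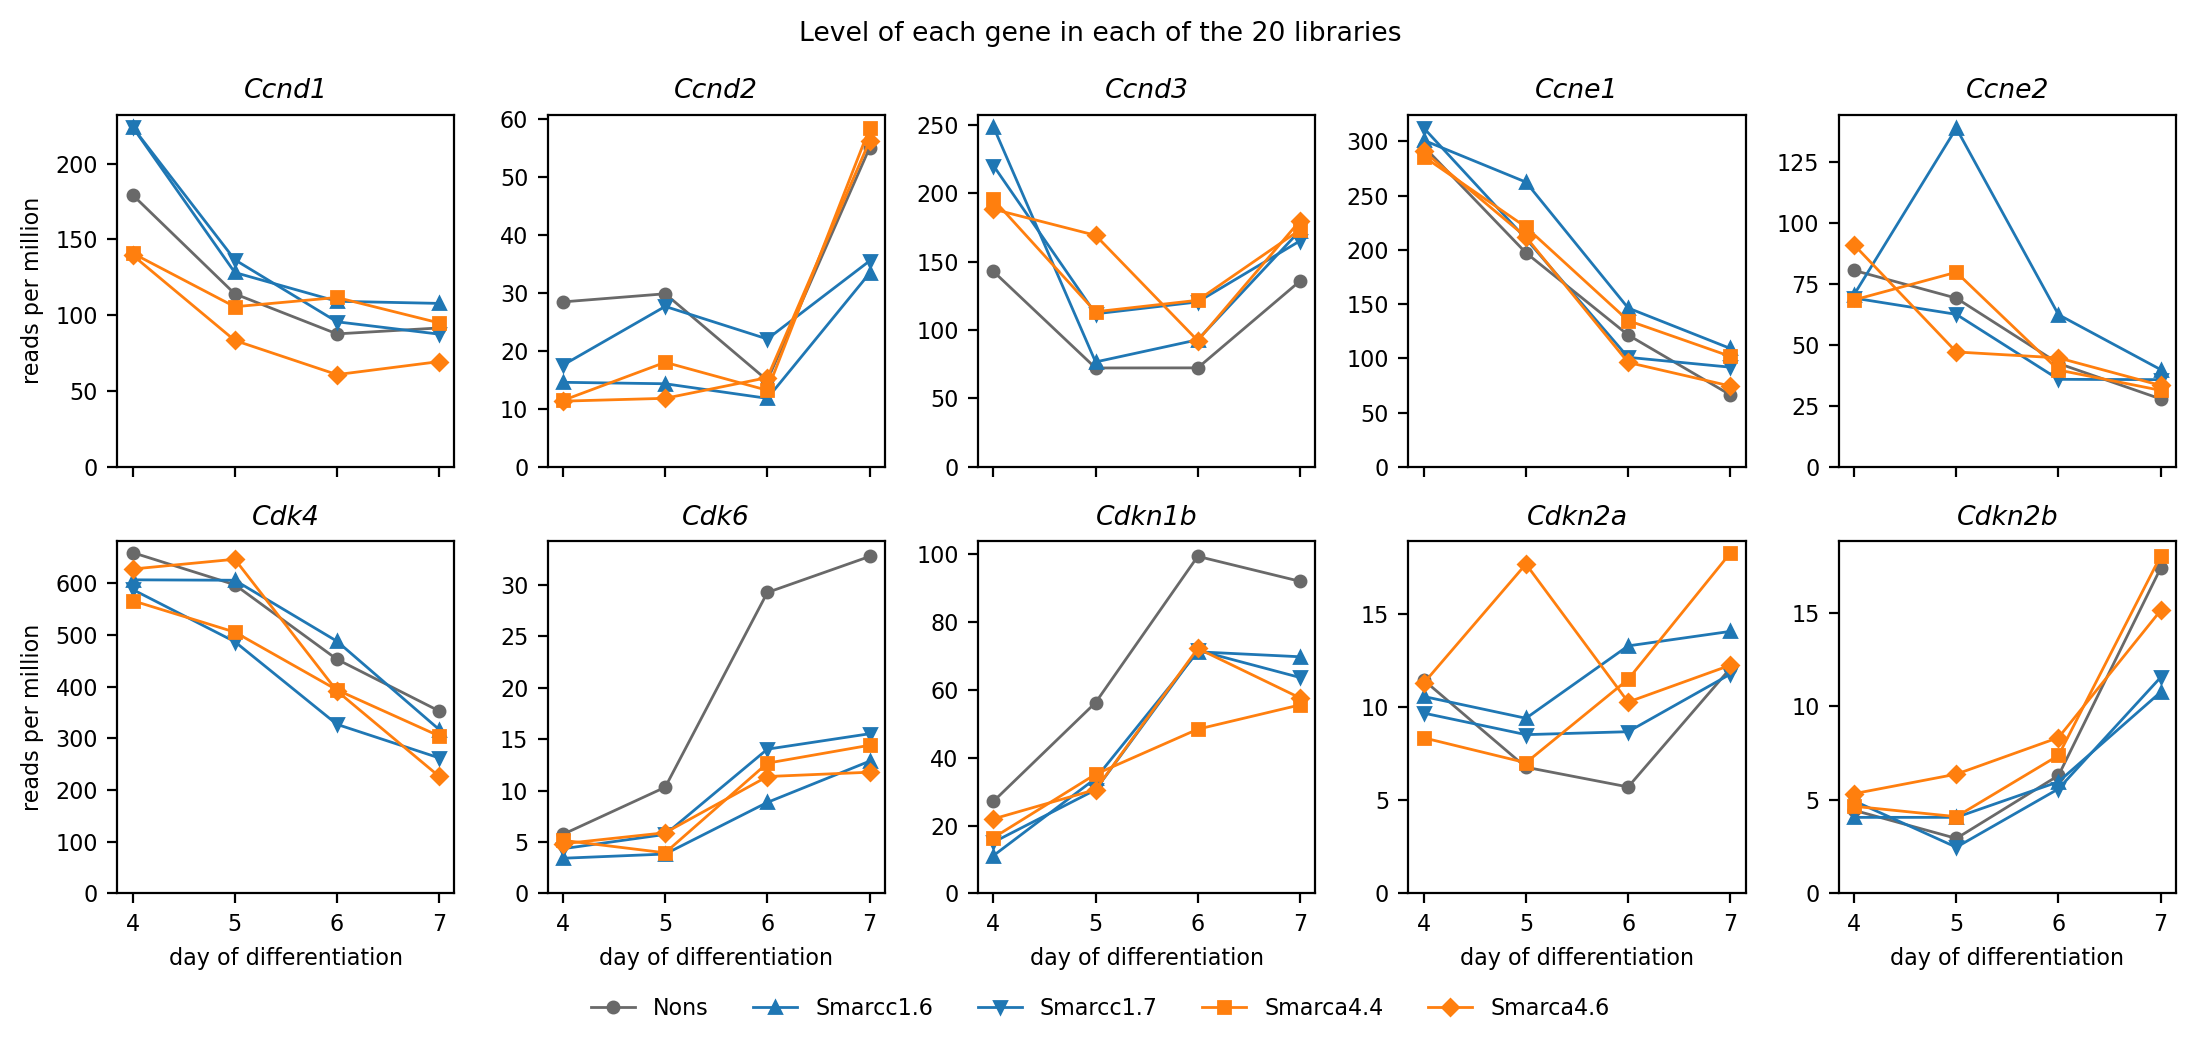
Level in rpm (vertical axes, each starting at 0) of the 10 G1 genes against the day of differentiation, with 1 point per library and 1 line per culture series (Nons, 2 *Smarcc1* hairpins, 2 *Smarca4* hairpins). *Cdk6* and *Cdkn1b* are higher on day 7 than on day 4 in every series, with Nons above all 4 hairpins on each day, while *Ccne1* and *Cdk4* are lower on day 7 than on day 4.

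Genes can be compared with each other only per length. Per kilobase of annotated exon, *Cdk4* had the highest level of the 10 genes in all 20 libraries, at a median of 150.0 rpm per kb (69.7 to 203). *Ccne1* came next in all 20, at 64.6 (24.9 to 117). At the other end stood *Cdk6*, with a median of 0.686 rpm per kb (0.245 to 2.34), and *Ccnd2*, with 1.89 (1.20 to 6.20). Between them the medians ran in the order *Ccnd1* (23.0), *Ccnd3* (15.9), *Ccne2* (15.7), *Cdkn1b* (11.4), *Cdkn2a* (9.35) and *Cdkn2b* (4.16). Neighbours in this order had overlapping ranges over the libraries, and the ranks of the middle genes changed with the day.

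The first comparison asked how the genes moved during differentiation. Between day 4 and day 7, both E cyclins, *Cdk4* and *Ccnd1* fell, and *Ccnd2*, *Cdk6*, *Cdkn1b* and *Cdkn2b* rose. The changes were large, between 1.98-fold and 3.79-fold, and each of the 8 genes moved in the same direction in all 5 series. *Ccnd3* and *Cdkn2a* did not pass the test, with log2 differences of -0.22 and 0.35. These 8 of 10 calls stand beside a background of 64.5% of the 13296 genes tested with limma (35.7% higher and 28.8% lower), so the share called is not by itself a feature of these genes. For a difference between any of the days, 9 of the 10 passed, all but *Cdkn2a*, against 77.2% of all genes. The markers moved with the days as well: of the 10 embryonic stem cell markers 7 fell and 1 rose, and in the 10-gene fibroblast list, of which 6 could be tested, 4 rose and 1 fell. The summed level of the fibroblast list went from between 8.03 and 14.1 rpm on day 4 to between 145 and 566 rpm on day 7, and 5 of its genes, *Col3a1*, *Dcn*, *Lum*, *Postn* and *Twist2*, had no reads in at least 1 library. In these bulk samples, fewer cells of a type and less RNA per cell cannot be told apart, and the part of cell composition in the result was not tested.

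**Figure D2:**
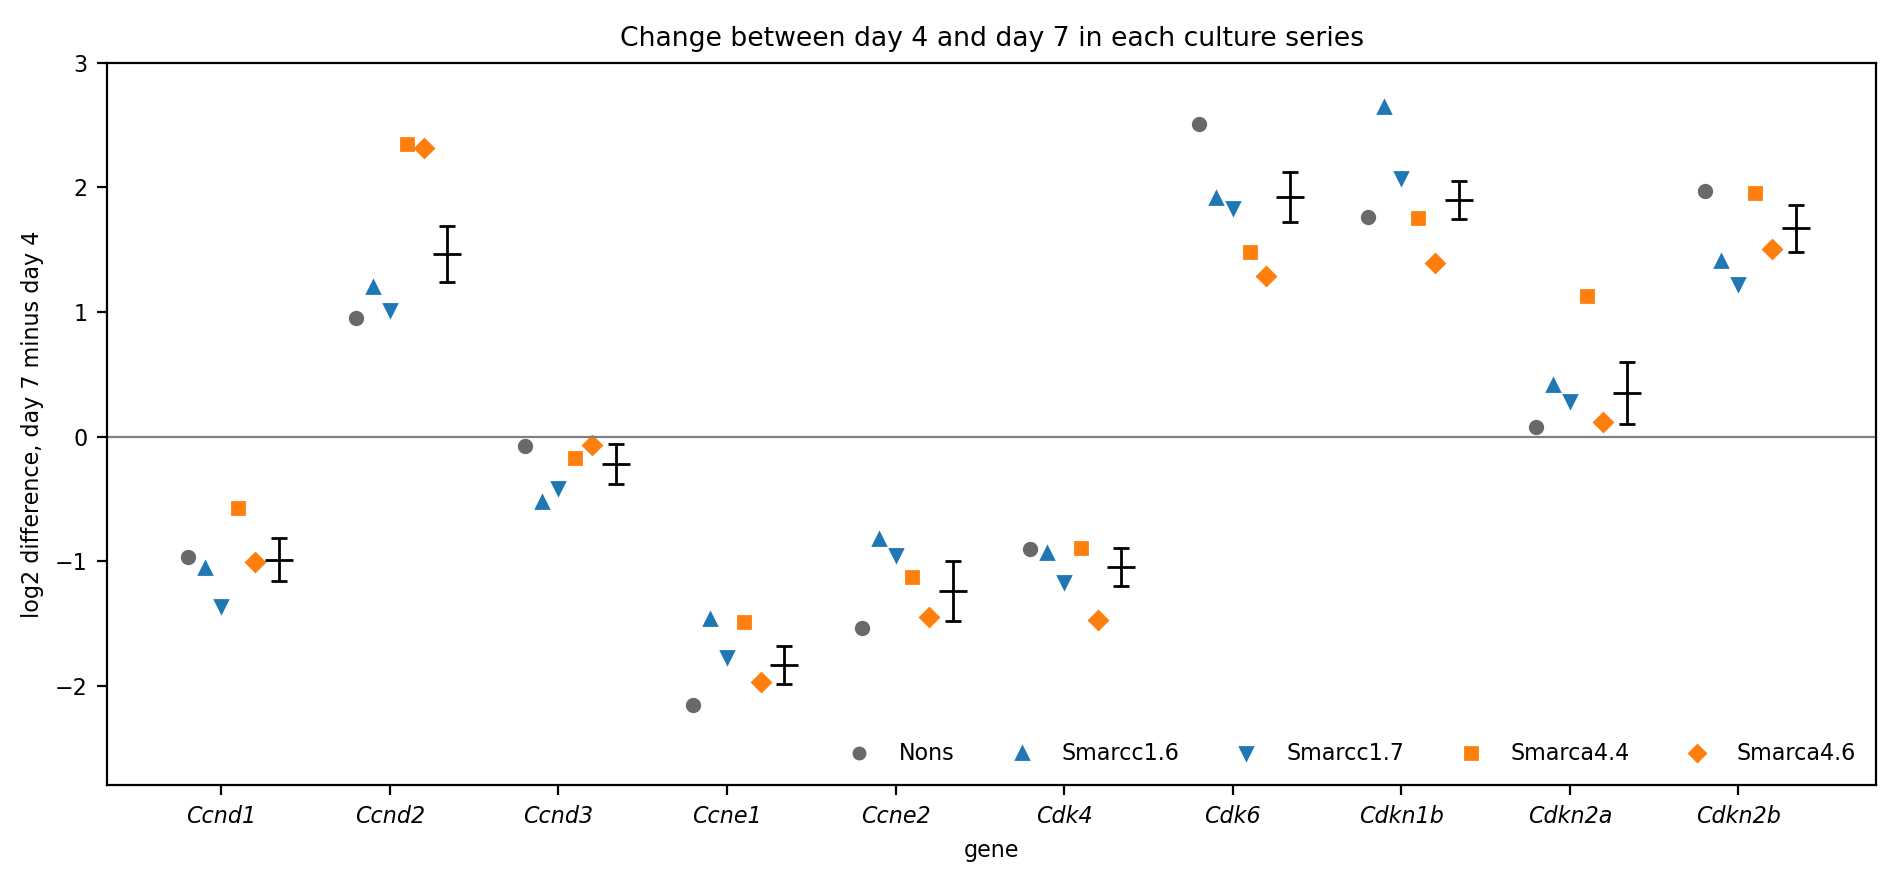
Log2 difference between day 7 and day 4 (vertical axis) for each G1 gene, with 1 point for each of the 5 culture series and, in black, the fitted mean over Nons and both knockdowns with its standard error. All 5 points lie above 0 for *Ccnd2*, *Cdk6*, *Cdkn1b*, *Cdkn2a* and *Cdkn2b* and below 0 for the other five genes.

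Among the D cyclins, *Ccnd1* (chr7:144929931-144939869, minus strand, mm10 as all positions here) is the cyclin best known as a target of mitogen signals. In Nons it went from 179 rpm on day 4 to 114, 87.7 and 91.6 rpm on days 5 to 7. The 8 *Smarcc1* knockdown libraries held 87.5 to 224 rpm (median 119) and the 8 *Smarca4* knockdown libraries 60.8 to 141 rpm (median 100.3). On day 4 both *Smarcc1* hairpins stood above Nons and both *Smarca4* hairpins below it. Day 7 was lower than day 4 by 1.48-fold to 2.56-fold in the 5 series, and the fitted log2 difference was -0.99 (SE 0.17, adjusted p = 0.000261).

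*Ccnd2* (chr6:127125779-127151048, minus strand) is the D cyclin that rose. Its Nons levels were 28.4, 29.8, 14.9 and 55.0 rpm on days 4 to 7, with the lowest level on day 6. Smarcc1.6 gave 14.6, 14.3, 11.8 and 33.4 rpm and Smarcc1.7 17.5, 27.7, 22.0 and 35.5 rpm. Smarca4.4 gave 11.4, 18.0, 13.2 and 58.4 rpm and Smarca4.6 11.3, 11.8, 15.4 and 56.2 rpm. All 4 hairpins were thus below Nons on days 4 and 5, and on day 7 the *Smarca4* hairpins had reached the Nons level while the *Smarcc1* hairpins had not. The day 7 level was 1.93-fold to 5.10-fold that of day 4, and the fitted log2 difference was 1.46 (SE 0.22, adjusted p = 8.34e-05).

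*Ccnd3* (chr17:47505051-47599683, plus strand) had a trough in place of a trend. In Nons it measured 143 rpm on day 4, 72.2 and 72.3 rpm on days 5 and 6, and 136 rpm on day 7. Smarcc1.6 gave 249, 76.6, 92.8 and 173 rpm and Smarcc1.7 220, 112, 121 and 165 rpm. Smarca4.4 gave 195, 113, 122 and 173 rpm and Smarca4.6 188, 169, 92.2 and 180 rpm. Every one of the 16 knockdown libraries was above Nons of its day. The difference between any of the days passed the test (adjusted p = 0.000166), whereas day 7 against day 4 did not (adjusted p = 0.241).

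Per kilobase, *Ccnd1* made up 66.4% of the 3 D cyclins in Nons on day 4 and 47.7% on day 7, while *Ccnd2* went from 5.27% to 14.3% and *Ccnd3* from 28.4% to 37.9%. In *Smarcc1* knockdown on day 7 the share of *Ccnd2* was 7.69% to 9.16%, and in *Smarca4* knockdown it was 13.5% to 14.5%. *Ccnd3* held 42.7% to 45.7% and 42.8% to 49.7% in these same libraries, above the Nons share. It exceeded *Ccnd1* in Smarca4.6 on days 5 and 7 and, by a little, in Smarcc1.7 on day 7.

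The E cyclins partner CDK2 at the entry into S phase. *Ccne1* (chr7:38097984-38107534, minus strand) measured 295, 197, 122 and 66.3 rpm in Nons on days 4 to 7. Its range was 91.8 to 312 rpm (median 178) in *Smarcc1* knockdown and 74.4 to 291 rpm (median 173) in *Smarca4* knockdown. All 5 series fell on each successive day. All 4 hairpins were above Nons on day 5, at 210 to 262 rpm, and on day 7, at 74.4 to 109 rpm, whereas on days 4 and 6 they lay on both sides of it. At day 7 the level was 2.76-fold to 4.46-fold lower than at day 4, the largest fall of the 10 genes, with a fitted log2 difference of -1.83 (SE 0.16, adjusted p = 4.93e-07). *Ccne2* (chr4:11191351-11204779, plus strand) measured 80.6, 69.2, 42.4 and 27.8 rpm in Nons. It ranged from 35.7 to 139 rpm (median 62.5) in *Smarcc1* knockdown and from 31.3 to 91.0 rpm (median 45.9) in *Smarca4* knockdown. The highest value belonged to Smarcc1.6 on day 5, where the other *Smarcc1* hairpin gave 62.5 rpm. *Ccne2* fell by 1.24 on the log2 scale between day 4 and day 7 (SE 0.24, adjusted p = 0.000588).

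*Cdk4* (chr10:127063534-127067920, plus strand), the more abundant of the 2 kinases that bind D cyclins, went from 659 rpm in Nons on day 4 to 597, 453 and 353 rpm. It ranged from 262 to 607 rpm (median 487) in *Smarcc1* knockdown and from 226 to 646 rpm (median 450) in *Smarca4* knockdown. Nons lay within the range of the hairpins on days 5 and 6, and on days 4 and 7 all 4 hairpins were below it. Between day 4 and day 7 the log2 difference was -1.05 (SE 0.15, adjusted p = 5.79e-05).

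*Cdk6* (chr5:3343893-3523218, plus strand), its close relative, moved the opposite way. In Nons it measured 5.75, 10.3, 29.3 and 32.8 rpm on days 4 to 7, with the largest step between days 5 and 6. Smarcc1.6 gave 3.42, 3.83, 8.86 and 12.9 rpm and Smarcc1.7 4.35, 5.74, 14.0 and 15.5 rpm. Smarca4.4 gave 5.17, 3.95, 12.7 and 14.4 rpm and Smarca4.6 4.83, 5.90, 11.4 and 11.8 rpm. All 16 knockdown libraries lay below Nons of their day, and each hairpin was closest to Nons on day 4. Over all groups the log2 difference between day 7 and day 4 was 1.92 (SE 0.20, adjusted p = 2.74e-06). This was the largest fitted rise of the 10 genes, close to that of *Cdkn1b* (1.90, SE 0.15). By series, *Cdk6* rose most in Nons only. *Cdkn1b* rose more than *Cdk6* in every hairpin series, and *Ccnd2* did so in both *Smarca4* hairpins.

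The opposite courses moved the ratio of the kinases, plotted beside the D cyclin shares. Per kilobase, *Cdk4* exceeded *Cdk6* 494-fold in Nons on day 4 and 46.4-fold on day 7. On day 7 the ratio was 72.7 and 106 in the *Smarcc1* hairpins and 82.7 and 91.0 in the *Smarca4* hairpins, all above Nons. The size of these ratios depends on the exon lengths assumed, 3.25 kb for *Cdk4* and 13.99 kb for *Cdk6*, but their order between libraries does not.

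**Figure D3:**
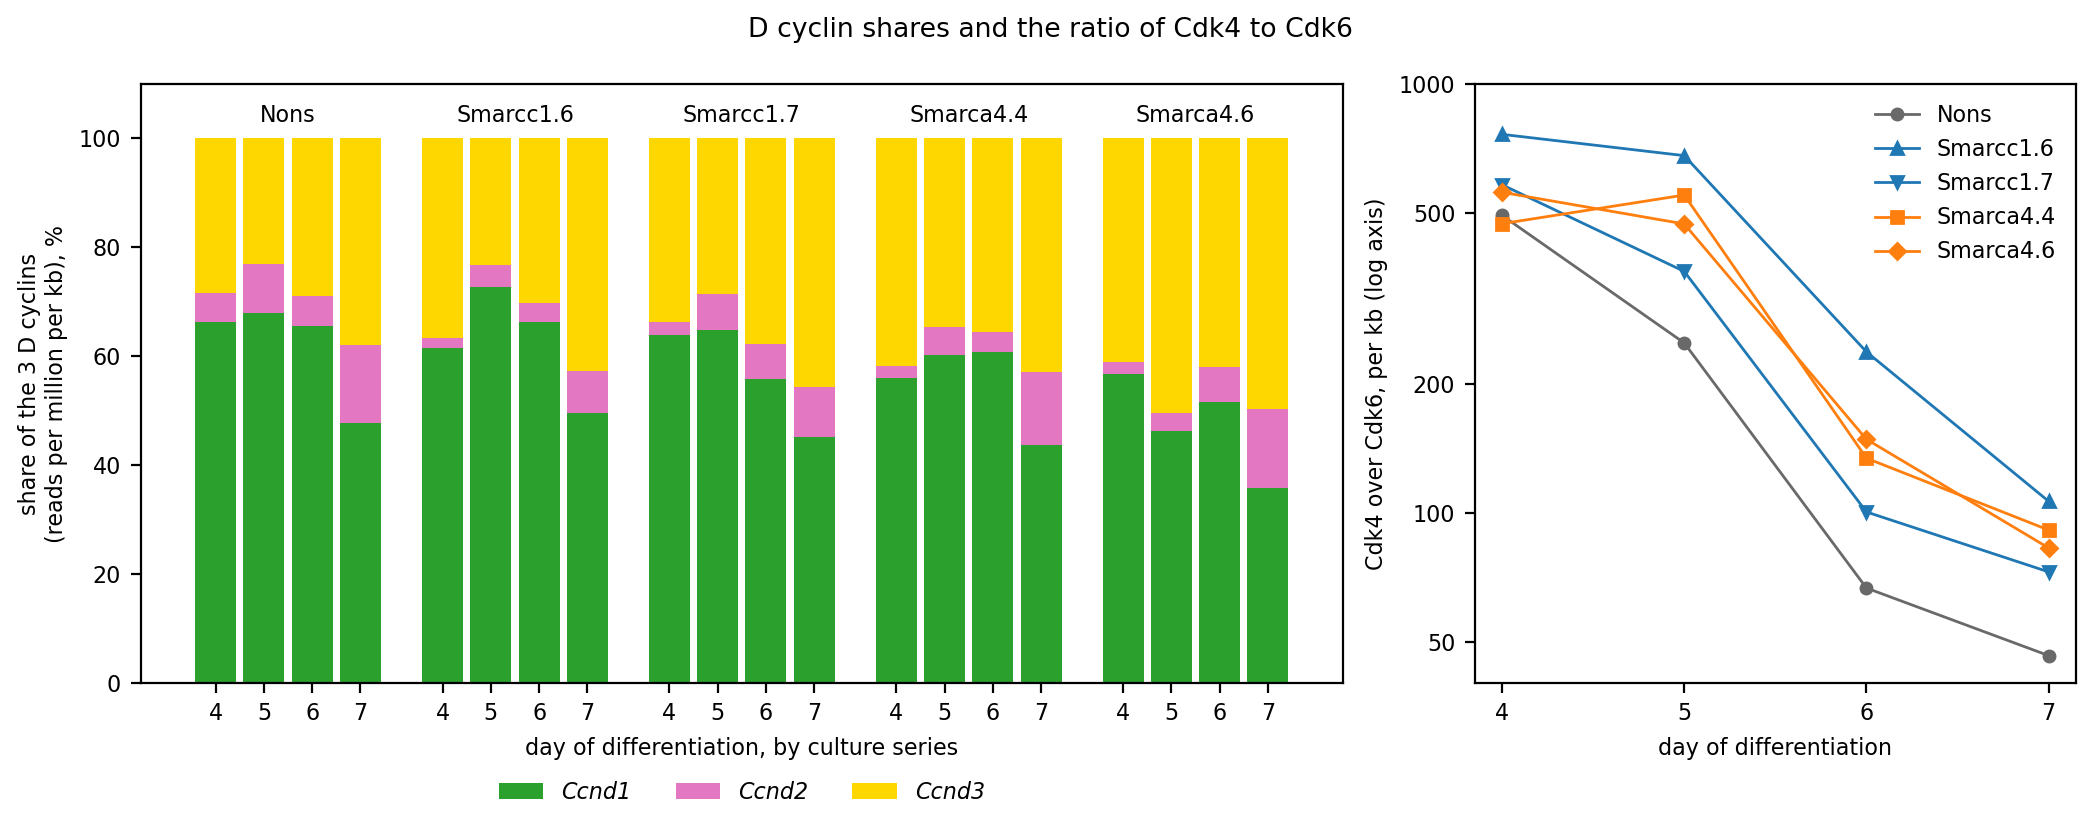
Left, share (%) of each D cyclin in the sum of the 3 D cyclins, in rpm per kb of exon, as 1 stacked bar per library. Right, level of *Cdk4* divided by that of *Cdk6*, both per kb, on a log axis by day; Nons falls from 494 to 46.4 and is below all hairpins on days 5 to 7.

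Of the inhibitors, *Cdkn1b* (chr6:134920401-134925513, plus strand) had the largest fitted rise, though *Cdkn2b* rose more in Nons and in both *Smarca4* hairpins. In Nons *Cdkn1b* measured 27.2, 56.3, 99.4 and 92.0 rpm on days 4 to 7. Smarcc1.6 gave 11.1, 33.9, 71.2 and 69.8 rpm and Smarcc1.7 15.1, 30.6, 71.7 and 63.7 rpm. Smarca4.4 gave 16.4, 35.1, 48.4 and 55.6 rpm and Smarca4.6 22.0, 30.6, 72.2 and 57.7 rpm. As for *Cdk6*, every knockdown library was below Nons of its day, and all 4 hairpins climbed from day 4 to day 6 as Nons did. The log2 difference between day 7 and day 4 was 1.90 (SE 0.15, adjusted p = 2.96e-07).

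*Cdkn2a* and *Cdkn2b* are neighbours on chromosome 4 and were low. *Cdkn2a* (chr4:89274473-89294653, minus strand) encodes both an INK4 protein and ARF, which acts on p53, and the gene-level value does not separate them. It measured 11.5, 6.79, 5.73 and 12.1 rpm in Nons, 8.54 to 14.1 rpm (median 10.1) in *Smarcc1* knockdown and 7.03 to 18.3 rpm (median 11.4) in *Smarca4* knockdown. The groups overlapped and no comparison called it. *Cdkn2b* (chr4:89306289-89311032, minus strand), which encodes p15, measured 4.44, 2.94, 6.30 and 17.4 rpm in Nons. It ranged from 2.47 to 11.5 rpm (median 5.26) in *Smarcc1* knockdown and from 4.10 to 18.0 rpm (median 6.87) in *Smarca4* knockdown. Both *Smarcc1* hairpins stayed below Nons on day 7, at 10.8 and 11.5 rpm. The rise to day 7 had a log2 difference of 1.67 (SE 0.19, adjusted p = 6.85e-06).

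The second comparison set each knockdown against Nons over days 4 to 7. *Cdk6* and *Cdkn1b* were lower in both knockdowns, *Ccnd3* was higher in *Smarca4* knockdown, and the remaining genes did not pass. With *Smarcc1* knockdown, *Cdk6* was 2.11-fold lower (log2 difference -1.08, SE 0.18, adjusted p = 0.00206) and *Cdkn1b* 1.63-fold lower (-0.70, SE 0.14, adjusted p = 0.00586). With *Smarca4* knockdown, *Cdk6* was 1.97-fold lower (-0.98, SE 0.18, adjusted p = 0.00678) and *Cdkn1b* 1.61-fold lower (-0.69, SE 0.14, adjusted p = 0.0117). *Ccnd3* was 1.49-fold higher with *Smarca4* knockdown (0.57, SE 0.15, adjusted p = 0.035). Both comparisons share the same 4 Nons libraries, so they are not independent of each other. The 4 days of a hairpin share that hairpin, and with the replicate block of the culture series only *Cdk6* passed in each knockdown (adjusted p = 0.0147 and 0.0441). *Cdkn1b* then had adjusted p of 0.0512 with *Smarcc1* and 0.0954 with *Smarca4*, and *Ccnd3* of 0.214 with *Smarca4*.

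**Figure D4:**
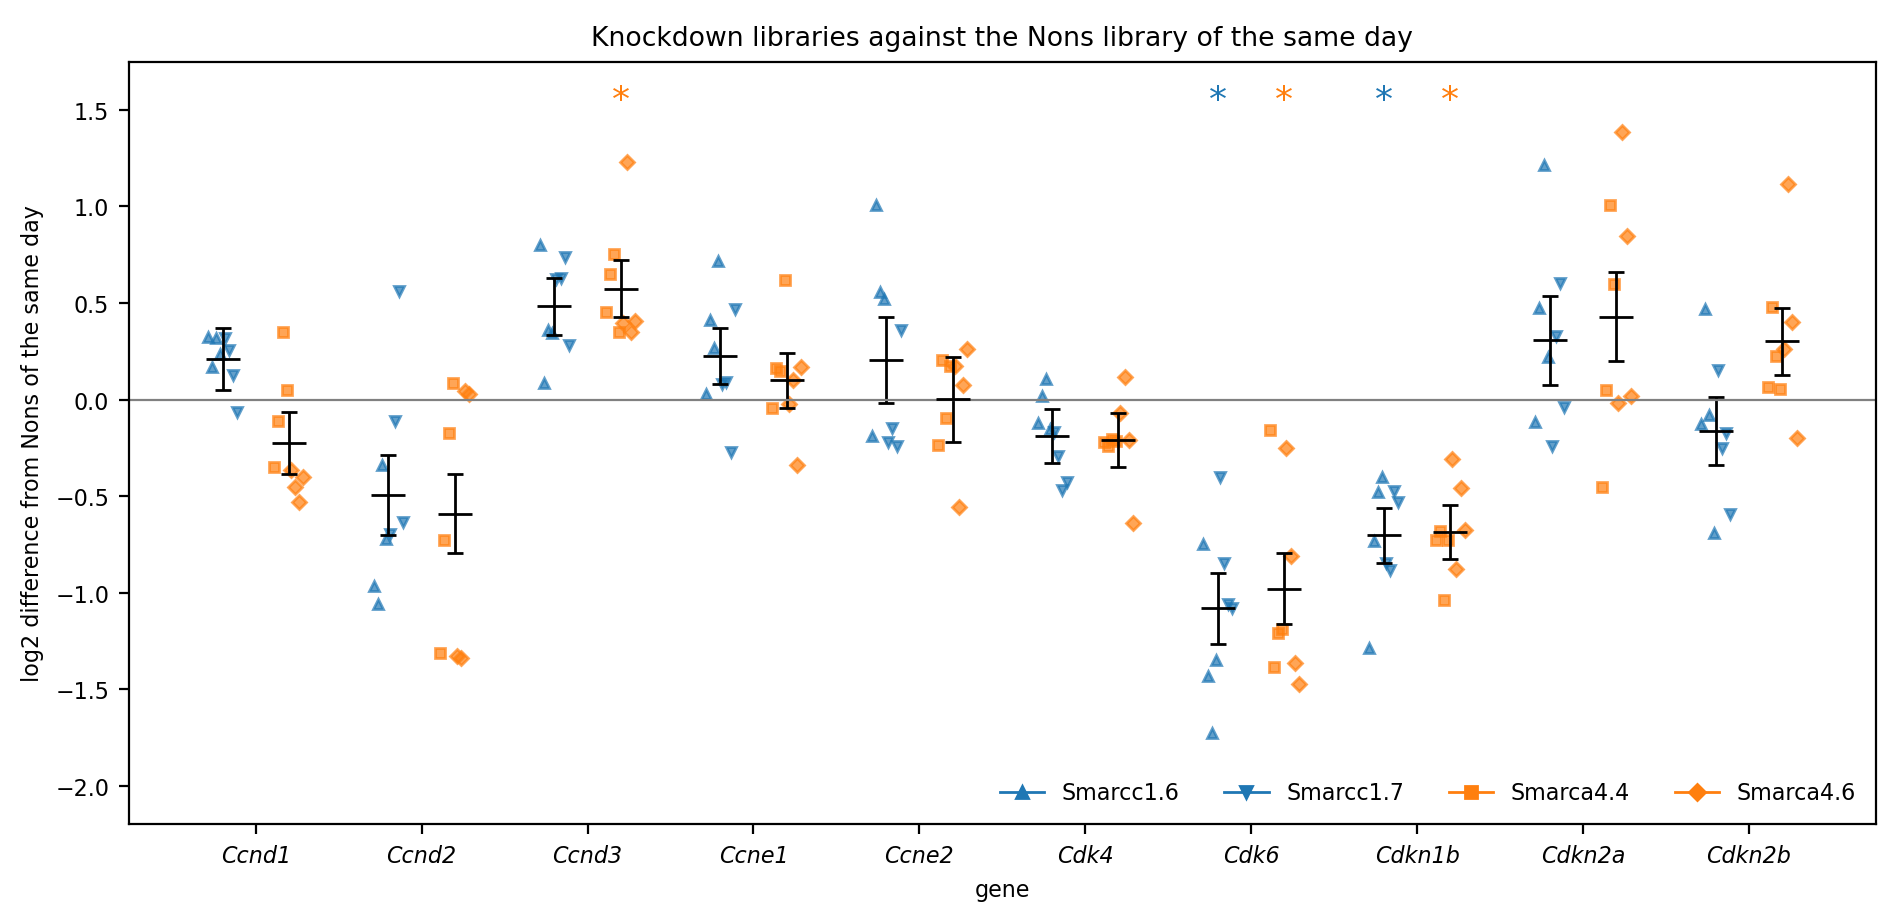
Log2 difference of each knockdown library from the Nons library of its day (vertical axis) for the 10 G1 genes, 8 points per knockdown, with the fitted mean and its standard error in black and an asterisk where the adjusted p was under 0.05. All 16 points lie below 0 for *Cdk6* and *Cdkn1b* and above 0 for *Ccnd3*.

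The *Smarcc1* comparison called 2 of the 10 genes, both lower, against 10.6% of all genes tested (7.54% higher and 3.08% lower). The *Smarca4* comparison called 3, of which 2 were lower, against 6.71% of all genes (4.75% higher and 1.96% lower). Under quantile normalization the share of higher calls among all called genes went from 71.0% to 53.7% for *Smarcc1* and from 70.7% to 52.9% for *Smarca4*, and in the latter to 60.5% under centring on the median gene. *Cdk6*, *Cdkn1b* and *Ccnd3* kept their calls there, and centring added *Ccnd2* with *Smarca4* (adjusted p = 0.0457). Counted by library, *Ccnd3* was the 1 gene above same-day Nons in all 8 *Smarcc1* knockdown libraries, against 8.69% of all genes, and *Cdk6* and *Cdkn1b* were below in all 8, against 5.17%. In *Smarca4* knockdown the same genes were above or below in all 8 libraries, against 9.85% and 4.48% of all genes. Over all 16 knockdown libraries, 3.91% of genes lay above same-day Nons throughout and 1.81% below.

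For *Cdk6*, *Cdkn1b* and *Ccnd3*, each *Smarca4* hairpin by itself gave differences near those of both, but fewer calls. This did not hold for all genes: the log2 difference of *Ccnd1* was -0.44 without Smarca4.4 and -0.015 without Smarca4.6. Without Smarca4.4 none of the 10 genes passed, with log2 differences of -0.97 for *Cdk6* (adjusted p = 0.0742), -0.58 for *Cdkn1b* (adjusted p = 0.0888) and 0.60 for *Ccnd3* (adjusted p = 0.119). Without Smarca4.6 only *Cdkn1b* passed (-0.79, adjusted p = 0.0432), *Cdk6* standing at -0.98 (adjusted p = 0.0861) and *Ccnd3* at 0.55 (adjusted p = 0.164). The *Ccnd3* call with *Smarca4* was also lost without either *Smarcc1* hairpin, at adjusted p of 0.0522 and 0.0509. With *Smarcc1* knockdown, *Cdk6* and *Cdkn1b* passed with any hairpin left out. *Ccnd3* had a log2 difference of 0.48 there (SE 0.15, adjusted p = 0.0549), and passed without the shallow Smarca4.4 library of day 5 (adjusted p = 0.0325).

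*Ccnd2* had negative log2 differences in both knockdowns that did not pass, -0.49 (SE 0.21, adjusted p = 0.169) with *Smarcc1* and -0.59 (SE 0.21, adjusted p = 0.119) with *Smarca4*. The first depended on the hairpin: without Smarcc1.7 it became -0.77 and passed (adjusted p = 0.0303), and without Smarcc1.6 it was -0.22 (adjusted p = 0.407). For the E cyclins the 95% confidence intervals of the log2 difference from Nons ran from -0.09 to 0.54 (*Ccne1*) and from -0.27 to 0.69 (*Ccne2*) with *Smarcc1*, and from -0.21 to 0.41 and from -0.48 to 0.48 with *Smarca4*. *Cdk4* had log2 differences of -0.19 and -0.21, and *Ccnd1* of 0.21 and -0.23, none of which passed.

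Some markers of the cells' state also differed from Nons in the main fit, but the lists did not all move one way. Of all genes tested, 7.54% were higher and 3.08% lower with *Smarcc1* knockdown, and 4.75% and 1.96% with *Smarca4* knockdown. The marker calls were not counted with the replicate block. Of the 10 embryonic stem cell markers, 6 were higher with *Smarcc1* and 4 with *Smarca4* knockdown, and none was lower. Their summed level ranged from 977 to 3979 rpm in Nons, from 1352 to 5229 rpm in *Smarcc1* knockdown and from 1168 to 4751 rpm in *Smarca4* knockdown, and it was above same-day Nons in 4 of 8 *Smarcc1* and 5 of 8 *Smarca4* knockdown libraries, including all 4 of day 7. The summed level of the fibroblast list on day 7 was 566 rpm in Nons, 256 to 299.5 rpm in *Smarcc1* knockdown and 145 to 201 rpm in *Smarca4* knockdown. Its 6 tested genes did not move one way: with *Smarcc1* 1 was higher and 2 were lower, with a median log2 difference of 0.40, and with *Smarca4* 2 were lower and none was higher, with a median of -0.66. Of the 14 early differentiation genes, of which 9 could be tested, 2 were higher and 2 lower in each knockdown, with sums of 401 to 1774 rpm in Nons, 510 to 1476 rpm in *Smarcc1* and 465 to 1617 rpm in *Smarca4* knockdown; *Mixl1*, *Gata6*, *Sox17* and *Foxa2* had no reads in at least 1 library. *Cdk6* and *Cdkn1b* also rose with differentiation in all series, and the part of the marker differences in their lower levels was not tested.

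When the knockdowns were set against each other, none of the 10 genes passed by limma or by limma-voom on recovered reads, against 4.09% of all genes called by limma. At an unadjusted p under 0.05 there were 2, *Ccnd1* and *Cdkn2b*. *Ccnd1* was higher in *Smarcc1* than in *Smarca4* knockdown, with a log2 difference of 0.44 (SE 0.13, adjusted p = 0.0904), and *Cdkn2b* lower, with -0.46 (SE 0.14, adjusted p = 0.102). *Ccnd1* passed without Smarca4.4 (0.65, adjusted p = 0.0477) and was 0.23 without Smarca4.6 (adjusted p = 0.55), and *Cdkn2b* passed without the shallow Smarca4.4 library of day 5 (-0.54, adjusted p = 0.0337). For *Cdk6* the interval of the difference ran from -0.42 to 0.22 and for *Cdkn1b* from -0.27 to 0.23, so differences within these bounds remain possible.

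Whether the change from day 4 to day 7 depended on the knockdown was tested as an interaction. None of the 10 genes passed for either knockdown by limma or limma-voom, against 0.459% of all genes for *Smarcc1* and 0.0827% for *Smarca4*. At an unadjusted p under 0.05 there were 0 with *Smarcc1* and 2 with *Smarca4*, *Ccnd2* and *Cdk6*. *Ccnd2* rose 5.10-fold in Smarca4.4 against 1.93-fold in Nons, with an interaction of 1.38 on the log2 scale (interval 0.12 to 2.64, adjusted p = 1). *Cdk6* rose 5.70-fold in Nons and 2.44-fold in Smarca4.6, with an interaction of -1.13 (interval -2.25 to -0.008, adjusted p = 1). With 1 Nons library a day, these intervals are wide.

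The wider pathway was followed in 36 partners of these genes, such as other inhibitors, RB proteins and E2F factors. It was also followed in 24 E2F target genes, many but not all of them of DNA replication. All genes of both lists could be tested. Between day 4 and day 7, 10 partners rose and 16 fell, with a median log2 difference of -0.27. These 26 of 36 calls stand beside 64.5% of all genes (35.7% higher and 28.8% lower), so their share is not by itself a feature of the partners. Of the 24 target genes 22 fell and none rose, with a median of -1.28, beside a median of 0.08 over all genes. *Ccna2* and *Cdk1*, which act later in the cycle, were the target genes that did not pass, with 0.13 and -0.11. The largest rises among the partners were those of *Fbxo4* (3.15, SE 0.23), an F-box protein, and *Cables1* (2.59, SE 0.28), a CDK-binding protein. The largest falls were those of the activator *E2f2* (-2.18, SE 0.30) and of *Tfdp1* (-1.41, SE 0.16), which encodes the DP partner of E2F. Of the targets, *Rrm2* (-2.07, SE 0.15) and *Tyms* (-1.89, SE 0.19), which serve nucleotide synthesis, fell most.

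**Figure D5:**
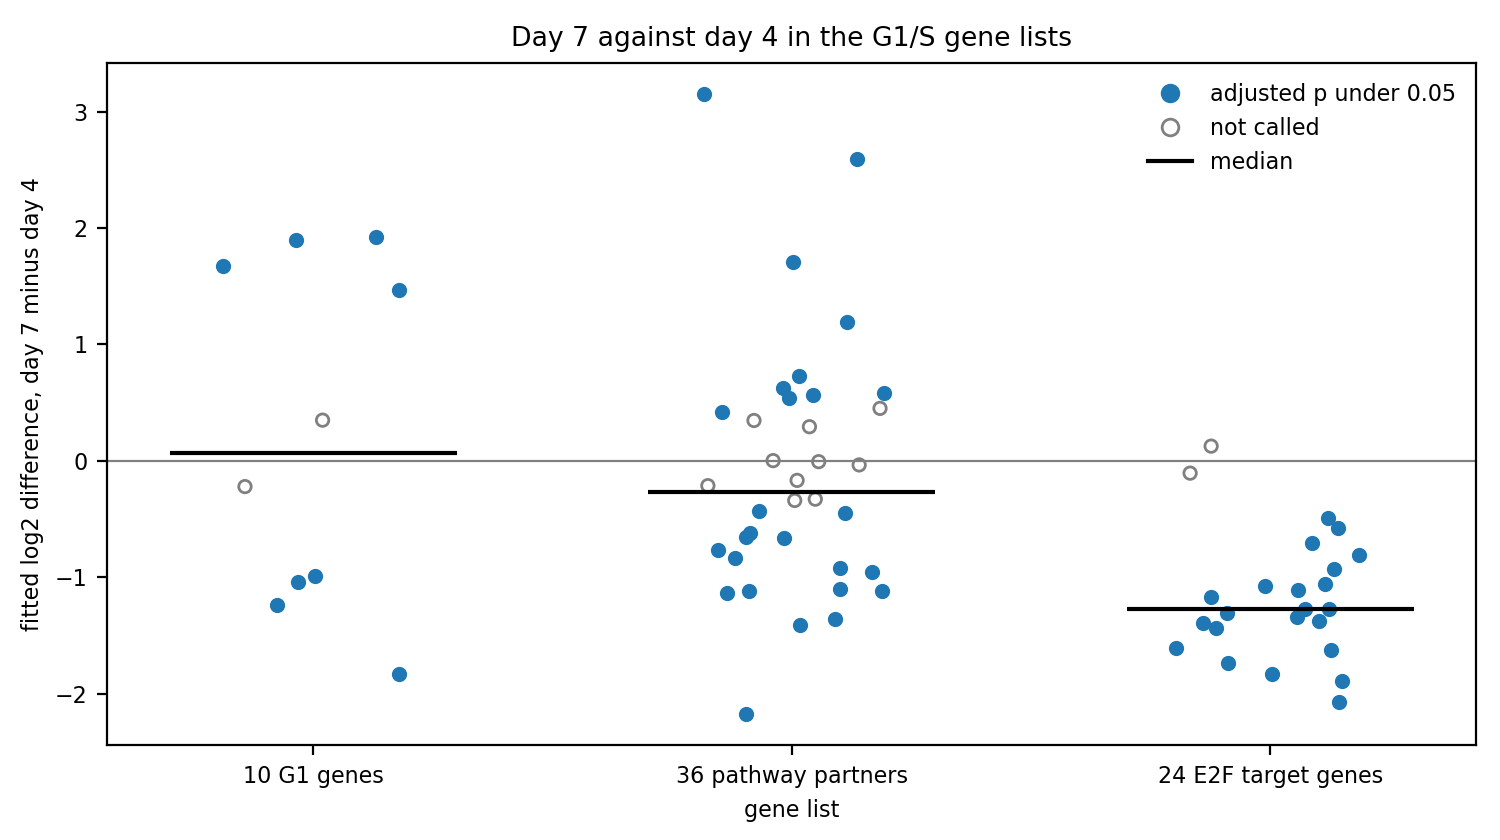
Fitted log2 difference between day 7 and day 4 (vertical axis) for each gene of 3 lists, with filled points where the adjusted p was under 0.05 and a line at the median. The G1 genes and their partners lie on both sides of 0, whereas the filled E2F target points all lie below 0, around a median of -1.28.

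Against Nons, the calls were 1 of 36 partners and 3 of 24 targets with *Smarcc1*, beside 10.6% of all genes. With *Smarca4* they were 2 of 36 and 3 of 24, beside 6.71%. The partners lay below these shares and the targets above them, on few calls in each list. With *Smarcc1* knockdown *E2f1* was the 1 partner that rose (0.64, SE 0.16, adjusted p = 0.0224). With *Smarca4* knockdown *Cdkn2c*, another INK4 gene, rose (1.18, SE 0.25, adjusted p = 0.0157) and *Cdkn1a*, which encodes p21, fell (-0.48, SE 0.11, adjusted p = 0.0182). The called E2F targets all rose. With the replicate block of the culture series, 0 partners and 1 target were called in each knockdown, and 0 genes of both lists between the knockdowns. The largest rises were those of *Mybl2* (0.65, SE 0.14) and *Cdc45* (0.54, SE 0.10) with *Smarcc1*, and of *Cdc6* (0.77, SE 0.12) and *Mybl2* (0.62, SE 0.14) with *Smarca4*. The medians of the target list were 0.10 and 0.09, beside 0.06 over all genes in both comparisons. Between the knockdowns, *Cdk2* (-0.47, SE 0.11, adjusted p = 0.0297) and *Cdc6* (-0.40, SE 0.10, adjusted p = 0.0403) were lower with *Smarcc1* than with *Smarca4*. The partner calls changed when hairpins were left out. Leaving out a hairpin of the other knockdown keeps the log2 difference from Nons and alters only the estimate of spread. No partner was called with *Smarcc1* without Smarcc1.7 or either *Smarca4* hairpin, and 2 were without Smarcc1.6. With *Smarca4*, no partner was called without Smarca4.6 or either *Smarcc1* hairpin and 1 was without Smarca4.4, and without either *Smarca4* hairpin 1 E2F target was left, against 3 without either *Smarcc1* hairpin. With *Smarcc1*, 2 to 3 targets were called whichever hairpin was left out. Between the knockdowns, leaving out any 1 hairpin left 0 calls in both lists. Without the shallow Smarca4.4 library of day 5, the partners called numbered 2 with *Smarcc1*, 4 with *Smarca4* and 4 between the knockdowns.

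Over the 20 libraries, each G1 gene had other genes of nearly the same course, given as a description because the libraries share days and hairpins. *Ccne1* was most like *Bop1* (Pearson r = 0.99) and *Imp4* (0.99), both of ribosome synthesis, and *Cdk4* most like *Hnrnpl* (0.99) and *Eif5a* (0.98). *Cdk6* was most like *Igfbp3* (0.95) and *Krt19* (0.95), and *Cdkn1b* most like *Myl3* (0.97) and *Pank4* (0.96). *Cdkn2b* was most like *Lgmn* (0.96) and *Suox* (0.95), *Ccne2* like *Riok2* (0.96) and *Zfp770* (0.96), and *Ccnd3* like *Dnm2* (0.94) and *Tbc1d10b* (0.94). *Ccnd1* was most like *Rimbp3* (0.92) and *4933440N22Rik* (0.92), *Ccnd2* like *Samhd1* (0.87) and *Flrt3* (0.86), and *Cdkn2a* like *Cno* (0.83) and *Snx3* (0.81). The likeness was thus lowest for *Cdkn2a* and *Ccnd2*.

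Promoter windows of RefSeq (GRCm38.p6, from 250 bases before to 50 bases after a gene's start) were matched for 7 of the 10 genes, with 9 windows in all. The 250 bases before the start are shown for the pair that was lower in both knockdowns, *Cdk6* (chr5:3343643-3343892, plus strand) and *Cdkn1b* (chr6:134920151-134920400, plus strand), and for the abundant pair that fell by day, *Cdk4* (chr10:127063285-127063534, plus strand) and *Ccne1* (chr7:38107491-38107740, minus strand). Capitals mark matches, on either strand, to the E-box CACGTG, the CCAAT box CCAAT, the GC box GGGCGG and the E2F sites TTTCCCGC, TTTGGCGC and TTTCGCGC.
Cdk6: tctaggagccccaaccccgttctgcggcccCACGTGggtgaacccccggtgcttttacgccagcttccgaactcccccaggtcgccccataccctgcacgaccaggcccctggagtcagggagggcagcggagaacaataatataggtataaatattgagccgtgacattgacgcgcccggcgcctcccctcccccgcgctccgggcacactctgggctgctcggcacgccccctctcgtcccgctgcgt
Cdkn1b: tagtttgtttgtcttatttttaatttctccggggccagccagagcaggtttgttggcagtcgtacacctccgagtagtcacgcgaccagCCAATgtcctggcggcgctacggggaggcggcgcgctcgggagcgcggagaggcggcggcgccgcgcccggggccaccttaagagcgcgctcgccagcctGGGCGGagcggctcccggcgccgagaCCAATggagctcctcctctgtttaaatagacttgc
Cdk4: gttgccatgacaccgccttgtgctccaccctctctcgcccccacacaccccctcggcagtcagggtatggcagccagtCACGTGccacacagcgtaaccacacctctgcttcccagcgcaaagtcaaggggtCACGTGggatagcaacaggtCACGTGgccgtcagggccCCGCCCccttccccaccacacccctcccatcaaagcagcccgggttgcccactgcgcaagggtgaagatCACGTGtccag
Ccne1: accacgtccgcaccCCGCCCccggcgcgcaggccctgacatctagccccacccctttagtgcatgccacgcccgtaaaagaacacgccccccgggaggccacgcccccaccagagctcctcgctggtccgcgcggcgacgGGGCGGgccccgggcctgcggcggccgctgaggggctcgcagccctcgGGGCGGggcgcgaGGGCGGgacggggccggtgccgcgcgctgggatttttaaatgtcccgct
The *Cdk6* window held 1 E-box and no CCAAT or GC box, whereas that of *Cdkn1b* held 3 CCAAT boxes, 1 of them after the start, and 1 GC box. *Cdk4* held 4 E-boxes and 3 GC boxes, 2 of these after the start and overlapping each other, and *Ccne1* 4 GC boxes. An E-box occurred in 7.15% of all 32851 windows, a CCAAT box in 37.4% and a GC box in 35.7%. Of the 9 windows, 2 held an E-box, 3 a CCAAT box and 8 a GC box. *Cdk6* and *Cdkn1b* shared no motif of this set, while *Cdk4* and *Ccne1* shared the GC box. One of the 3 E2F sites was found in 1 of the 9 windows, a *Cdkn2a* window, against 1.85% of all windows. A match is a description of the letters and was not tested as a site.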

How the data were processed

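The authors trimmed single-end 75 bp reads, used TopHat or HISAT2 for alignment to mm10 (HISAT2 in the submitters' processing notes) and deposited log2 rpm values per gene from SeqMonk. Annotation and strand use are not given in the sources used here, so overlapping genes are uncertain. The lowest value of a library, that of genes with no read, equals 0.9 of a read, and whole reads were recovered from it (100% of values below 1000 reads, within 0.05).

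The 13296 genes whose mean was 0 or more on the log2 scale, all 10 G1 genes included, were fitted with limma 3.58.1 in R 4.3.3 (lmFit, eBayes with trend) with a mean for each of 12 groups and days, Benjamini-Hochberg adjustment and a threshold of 0.05. The 8 residual degrees of freedom are differences between hairpins of a day. Every contrast with Nons rests on 1 Nons series, and *p*-values measure the spread between libraries, which the labels do not tie to separate cultures. On simulated data of the *Smarcc1* comparison, 95.5% of 200 genes changed by a log2 of 1 were called. Among the unchanged of the 13296 genes, 9 were called. The simulated libraries were independent, with a common dispersion and no effect of hairpin or series. Neither the share recovered nor the number of false calls therefore carries over to libraries that share a hairpin.

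Groups were taken from the sample titles. Exon lengths are unions of GENCODE M21 exons. The genes and lists were chosen with earlier results of these data known. Of partners and targets, the 2 called genes with the largest rise and fall are named, and for each G1 gene the 2 with the highest correlation; *Ccna2* and *Cdk1* were named after their values were seen. Alternatives were other filters, 1 rpm added, centring, quantile normalization, a common lowest value, limma-voom, additive factors, a replicate block and leaving out hairpins or the shallow library.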

Additional observations from a re-analysis of the deposited data

Results flagged for a closer look

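Among 20 sets of 8 differences from same-day Nons (10 genes, 2 knockdowns), 2 held a library far from the rest by Dixon's criterion, which flags about 1 in 20 sets by chance. *Ccnd3* in Smarca4.6 on day 5 stood at a log2 difference of 1.23, with the next library at 0.75. *Cdk4* in Smarca4.6 on day 7 stood at -0.64, with the next at -0.24.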

How the results depend on the processing

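The 14 alternatives gave 8 calls for day 7 against day 4 in the G1 genes, except 6 with a mean of at least 10 rpm, where *Cdk6* and *Cdkn2b* were not tested, and 9 with centring, and gave 0 calls for the interactions, which a fit with additive factors does not hold. For *Smarcc1* against Nons, 1 of 2 calls was left with that filter. For *Smarca4* against Nons, 1 of 3 was left with it, and leaving out 1 hairpin or the shallow library gave 0 to 3. Between the knockdowns, additive factors gave 1 call (*Ccnd1*), and leaving out a hairpin or that library 0 to 1. Centring shifted the median gene of day 7 against day 4 by -0.18 and quantile normalization by -0.14, without turning the direction of any of the 10 genes, and centring added *Ccnd3*.

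With the replicate block of the culture series, 1 gene (*Cdk6*) was called in *Smarcc1* and 1 (*Cdk6*) in *Smarca4* against Nons, and *Cdkn1b* had adjusted p of 0.0512 and 0.0954. All genes called went from 1412 to 605 and from 892 to 258. The correlation of hairpin differences between days was -0.21 to 0.37 in *Smarca4* and 0.02 to 0.82 in *Smarcc1*, over 0.1 in 3 of 6 pairs of days each. In the block fit the correlation of libraries within a culture series was 0.217. The main fit took the libraries of a hairpin as independent, so its *p*-values against Nons can be too small.

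Small differences that did not pass changed sign. In *Smarca4* against Nons, *Ccne2* became -0.074 with centring, -0.056 with quantile normalization, -0.011 with limma-voom and -0.094 without the Smarca4.4 library of day 5. Leaving out 1 hairpin gave -0.010 to 0.012 for *Ccne2* and -0.023 to 0.22 for *Ccne1* there, and -0.061 to 0.47 for *Ccne2* in *Smarcc1* against Nons. Between the knockdowns, *Cdkn1b* became 0.025 with quantile normalization and 0.0071 without the day 5 library, which also gave -0.022 for *Cdk4*. Leaving out 1 hairpin there gave -0.0059 to 0.26 for *Ccne1*, -0.062 to 0.47 for *Ccne2*, -0.13 to 0.17 for *Cdk4*, -0.33 to 0.13 for *Cdk6*, -0.12 to 0.089 for *Cdkn1b*, -0.27 to 0.020 for *Cdkn2a* and -0.18 to 0.37 for *Ccnd2*. The cause was not tested. A hairpin left alone on its day is assumed to vary like the other groups.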
